A study of Homo sapiens with 12 samples.

Results

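The 38 genes described here belong to the unfolded protein response (UPR) and the integrated stress response (ISR), and their rows were taken by gene symbol from a table of 58278 genes. Every symbol matched 1 row. The rule uses no measured value, but the members were chosen with earlier results of these data known. They comprise 10 chaperones and co-chaperones of the endoplasmic reticulum (ER), 3 genes of disulfide-linked folding, 5 of protein translocation and ER-associated degradation (ERAD), 3 sensors with the transcription factor XBP1, 6 transcription factors of the ISR, 6 of its effectors and 4 enzymes of amino acid synthesis. All but NUPR1 passed the filter on low counts, which left 37 of 24342 genes tested. NUPR1, a stress-induced chromatin factor, had between 0 and 6 counts in each library and was not tested.

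Expression was measured in HK2 cells, an immortalised human line from the epithelium of the proximal tubule, in 12 libraries of 2 biological replicates for each of 6 groups. Ctrl cells were untreated, and TN cells received 5 ng/mL TNF-α for 3 h. PRTN and BUTN cells had 15 mM propionate or 3 mM butyrate, both short-chain fatty acids (SCFAs), for 24 h before the same TNF-α. TNPR and TNBU cells had the same SCFAs for 24 h after TNF-α. All groups are 1 line, so the p-values measure the spread between cultures of that line. The general treatment text of the labels names thapsigargin, a known inducer of ER stress, and JQ1 instead, whereas the label of each library gives TNF-α and the SCFA, which the study's methods also give and which is followed here. No group had an SCFA without TNF-α, and none stood for a further 24 h without an SCFA, so SCFA exposure and time in culture cannot be told apart in the comparisons with TN.

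The libraries held 27269986 to 33851130 expected counts, and 3 counts stood at 0.0867 to 0.112 CPM (counts relative to a library size scaled by TMM factors). Those factors were below 1 in every Ctrl and TN library and above 1 in every SCFA library, from 0.913 to 1.06 in all. Replicates lay farthest apart in TNPR and TNBU, with a median absolute log2 difference of 0.140 and 0.158 against 0.0828 to 0.104 in the other groups. The TNF-α target TNFAIP3 rose in TN against Ctrl by 2.15 ± 0.06 on the log2 scale (adjusted p = 1.25e-09, limma-voom). Of 10 renal markers, LRP2, SLC34A1 and MME, which mark the differentiated proximal tubule, stayed under 1 CPM in every library. The summed CPM of the renal list was 709.7 to 763 in Ctrl and TN libraries and 283 to 321 in SCFA libraries. The 5 epithelial markers summed to 1116 to 1215 and to 1729 to 2317, of which KRT8 and KRT18 made up most. EPCAM had group means of 56.1 and 57.1 CPM in Ctrl and TN and of 15.3 to 22.1 CPM in the SCFA groups. KRT19 went the other way, from 4.89 and 4.53 to 82.4 to 119 CPM, as did CDH1, from 0.267 and 0.109 to 9.94 to 14.1 CPM. The 3 fibroblast markers summed to 43.2 to 52.6 and to 152 to 210.4, of which COL1A1 made up most. Its group means were 48.3 and 41.4 CPM in Ctrl and TN and 161 to 196 in the SCFA groups. PDGFRB had group means of 3.85 and 3.30 CPM and of 4.54 to 6.82, and PDGFRA stayed under 1 CPM. Of 5 leukocyte markers 4 stayed under 1 CPM throughout, the exception being CD68, and the list summed to 23.8 to 49.5 CPM over all libraries. The 3 endothelial markers summed to 0.143 to 0.287 CPM in Ctrl and TN libraries and to 1.51 to 2.80 in SCFA libraries. The part of these shifts in the results below was not tested.

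The UPR answers unfolded protein in the ER through 3 membrane sensors. IRE1 (gene ERN1) splices the XBP1 transcript, ATF6 is cut to release a transcription factor, and PERK (gene EIF2AK3) phosphorylates the translation factor eIF2α. That phosphorylation also starts the ISR, which other kinases reach from amino acid shortage, haem shortage or viral RNA, and which lowers general translation while ATF4 is translated more. ATF4 and its partners raise genes for amino acid supply, redox balance and, through CHOP (gene DDIT3), cell death. Proximal tubular cells carry a large load of membrane and secretory protein, and ER stress is a well-known feature of tubular injury. Gene counts do not show XBP1 splicing, ATF6 cleavage, eIF2α phosphorylation or protein, so every value below is a transcript level or a difference between levels.

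The ER stress elements in the promoters are shown first, because they are the sequence features that the chaperone genes are known for and because genes that carry them moved in opposite directions. Promoters from 250 bases before to 50 after the transcription start were taken from RefSeq (GRCh38.p14), where 36 of the 38 genes matched, all except NUPR1 and SHMT2. The ER stress response element (ERSE) was searched on both strands as CCAAT and CCACG separated by any 9 bases. It was present in 7 members and in 0.0916% of 27305 genes, where a match in any promoter of a gene counted. By promoter the share was 0.0769% of 35116. ERSE-II, ATTGG and CCACG separated by any 1 base, was present in 3 members and in 0.0696% of genes (0.0541% of promoters). The matches read as follows, 5′ to 3′ on the matching strand, with the fixed letters in capitals.
HSPA5 (chr9:125241391-125241409): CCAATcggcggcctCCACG
HSP90B1 (chr12:103930216-103930234): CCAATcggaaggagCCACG
HSP90B1 (chr12:103930321-103930339): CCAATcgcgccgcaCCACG
CANX (chr5:179698778-179698796): CCAATcttcacactCCACG
PDIA6 (chr2:10812853-10812871): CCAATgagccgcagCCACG
XBP1 (chr22:28800603-28800621): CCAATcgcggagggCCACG
CRELD2 (chr22:49918554-49918572): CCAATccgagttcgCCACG
ERO1B (chr1:236282183-236282201): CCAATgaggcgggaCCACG
HERPUD1 (chr16:56932025-56932035): ATTGGgCCACG
HYOU1 (chr11:119057380-119057390): ATTGGaCCACG
HYOU1 (chr11:119057274-119057284): ATTGGaCCACG
SDF2L1 (chr22:21642114-21642124): ATTGGtCCACG

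Of the 10 members with an ERSE or ERSE-II, 5 fell in all 4 SCFA groups against TN (HSPA5, CANX, PDIA6, XBP1 and HERPUD1), and 2 fell in some of them (HSP90B1 and HYOU1). The remaining 3 were SDF2L1 and ERO1B, which rose in 3 groups and in 1 group, and CRELD2, which had no call. Of all 37 tested members 32.4% were lower in all 4 groups, as were 11.9% of all tested genes. Whether the members with an element differ from either share was not tested. The UPR element TGACGTGG was found in HYOU1 alone among the members, overlapping 1 of its ERSE-II matches, and in 0.927% of genes (0.729% of promoters). The ATF4 element TGATGNAA was found in HERPUD1, CEBPG, CHAC1 and ASNS and in 4.46% of genes (3.62% of promoters). A match describes letters in this window and does not show that a factor was bound there.

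Upstream sequence is given for 4 members that hold a searched element, HSPA5 and HERPUD1 (lower in all 4 SCFA groups) and SDF2L1 and CHAC1 (higher in 3 of 4). HERPUD1 shares ERSE-II with SDF2L1 and the ATF4 element with CHAC1, and HSPA5, with an ERSE, shares no searched element with the other three. Each run holds the 250 bases before the start on the gene's strand, with whole matches to the searched elements in capitals.
HSPA5 (chr9:125241344-125241593, minus strand): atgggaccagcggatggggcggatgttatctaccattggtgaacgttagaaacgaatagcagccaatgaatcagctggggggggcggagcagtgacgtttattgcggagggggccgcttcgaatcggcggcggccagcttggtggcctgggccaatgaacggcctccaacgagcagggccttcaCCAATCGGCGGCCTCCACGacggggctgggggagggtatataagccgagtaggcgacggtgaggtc
HERPUD1 (chr16:56931892-56932141, plus strand): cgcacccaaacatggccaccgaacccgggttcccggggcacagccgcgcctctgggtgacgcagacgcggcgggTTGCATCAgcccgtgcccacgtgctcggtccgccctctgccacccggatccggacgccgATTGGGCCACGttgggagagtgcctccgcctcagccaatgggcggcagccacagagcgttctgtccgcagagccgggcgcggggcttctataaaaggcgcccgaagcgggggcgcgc
SDF2L1 (chr22:21642052-21642301, plus strand): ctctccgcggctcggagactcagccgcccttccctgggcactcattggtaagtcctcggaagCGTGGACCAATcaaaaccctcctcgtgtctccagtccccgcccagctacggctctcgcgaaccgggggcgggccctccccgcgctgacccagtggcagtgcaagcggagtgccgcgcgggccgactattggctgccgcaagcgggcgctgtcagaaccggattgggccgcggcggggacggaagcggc
CHAC1 (chr15:40953221-40953470, plus strand): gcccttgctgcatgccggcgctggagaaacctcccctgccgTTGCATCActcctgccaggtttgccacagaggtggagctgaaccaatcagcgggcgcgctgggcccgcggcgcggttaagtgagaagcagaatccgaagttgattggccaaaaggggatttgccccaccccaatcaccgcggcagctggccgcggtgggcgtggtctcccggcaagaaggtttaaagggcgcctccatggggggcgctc

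Against TN, the 37 tested members split into 13 lower and 2 higher for PRTN, 14 and 1 for BUTN, 12 and 3 for TNPR, and 14 and 2 for TNBU. A call, and the words rose and fell, required a change of more than 1.5-fold together with an adjusted p under 0.05 (limma-voom, Benjamini-Hochberg over all 24342 tested genes). Among all tested genes the shares called lower were, in the same order, 16.7%, 14.8%, 16.9% and 16.5%. The shares called higher were 23.9%, 23.1%, 24.9% and 25.0%. The median log2 fold change of the members was -0.25, -0.34, -0.26 and -0.37 in these groups, against 0.09, 0.08, 0.12 and 0.09 over all tested genes. In RNA from bulk cultures, fewer cells that express a gene and less of its RNA per cell cannot be told apart.

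In all 4 SCFA groups 12 of the 37 members (32.4%) were lower, where 11.9% of all tested genes were. They were ATF5, XBP1, PPP1R15A, TRIB3, HERPUD1, ATF4, CANX, DDIT3, HSPA5, MANF, ATF6 and PDIA6, in the order of the mean of their 4 log2 fold changes, from -2.81 to -0.70. No member was higher in all 4, against 18.4% of all tested genes, and edgeR and DESeq2 on rounded counts also gave 0. A further 7 members had a call in some of the 4 groups, and 18 had none. The 4 comparisons share the TN libraries, so they are not independent of each other. Regardless of test, 19 members were lower in every 1 of the 8 SCFA libraries than in each of the 4 Ctrl and TN libraries, as were 23.4% of all tested genes, and 6 were higher, as were 27.6%. Scaling by library size alone raised the median of all genes to 0.23 to 0.29, and the calls among members became 11 lower and 3 higher for PRTN, 10 and 3 for BUTN, 9 and 4 for TNPR, and 9 and 4 for TNBU. With that scaling 8 of the 12 genes were called lower in all 4 groups and MANF, PDIA6, ATF6 and DDIT3 were not, while SDF2L1 and CHAC1 were called higher in all 4.

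**Figure D1:**
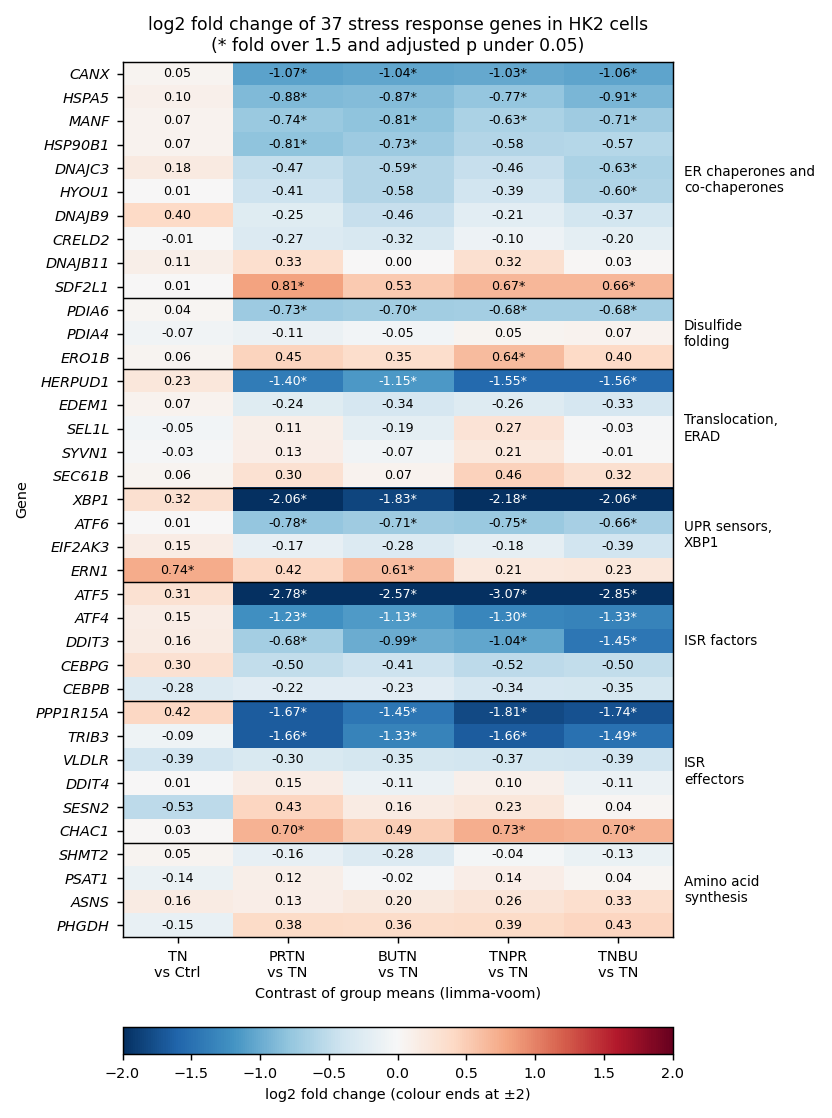
Heat map of the log2 fold change (colour and printed value) of the 37 tested members (rows, by role) in TN against Ctrl and in each SCFA group against TN (columns), with an asterisk for a fold over 1.5 and an adjusted p under 0.05. The 4 SCFA columns resemble each other and share the TN libraries. XBP1 and ATF5 are the darkest rows, from -1.83 to -3.07, and the amino acid enzymes hold no asterisk.

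Most calls among the ER chaperones were decreases, with SDF2L1 as the exception. HSPA5 (BiP, ENSG00000044574, chr9:125234853-125241382 on GRCh38) binds unfolded protein and holds the sensors inactive. Its level was 983 and 931 CPM (Ctrl), 1043 and 1015 (TN), 559 and 559 (PRTN), 557 and 569 (BUTN), 603 and 601 (TNPR), and 551 and 542 (TNBU). All 8 SCFA libraries lay between 542 and 603 CPM, below every Ctrl library, and the groups did not overlap. The log2 fold change against TN was -0.88 ± 0.05 (SE) for PRTN, -0.87 ± 0.05 for BUTN, -0.77 ± 0.05 for TNPR and -0.91 ± 0.05 for TNBU, with adjusted p of at most 2.62e-08.

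CANX encodes calnexin, the membrane lectin that retains glycoproteins until they fold. It stood at 773 and 731 CPM (Ctrl) and at 778 and 777 (TN). In the SCFA groups the levels were 369.9 and 372 (PRTN), 369.8 and 384 (BUTN), 392 and 372 (TNPR), and 404 and 343 (TNBU), about the halving that its log2 fold changes of -1.07, -1.04, -1.03 and -1.06 (SE 0.07 each) describe. MANF, a secreted ER cofactor of HSPA5, was at 50 to 59.8 CPM in Ctrl and TN libraries and at 32.3 to 38.4 CPM in SCFA libraries. Its log2 fold changes were -0.74, -0.81, -0.63 and -0.71 (SE 0.08 each, adjusted p of at most 2.74e-05).

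HSP90B1, the ER member of the HSP90 family, was at 1719.6 to 1925 CPM in Ctrl and TN libraries and at 1052 to 1307 in SCFA libraries. It fell in PRTN (-0.81 ± 0.06) and BUTN (-0.73 ± 0.06) and missed the 1.5-fold threshold in TNPR (-0.58 ± 0.06, adjusted p = 1.94e-06) and TNBU (-0.57 ± 0.06, adjusted p = 2.52e-06). Each value passed the threshold in 8 of the 12 fits without 1 library, such as that without TN replicate 2, where they were -0.66 and -0.63. HYOU1, a nucleotide exchange factor for HSPA5, had -0.58 ± 0.08 in BUTN, short of the fold threshold, which it passed in 9 of the 12 fits without 1 library, with values from -0.59 to -0.64. It fell in TNBU by 0.60 ± 0.08 on the log2 scale, and without TN replicate 2 or TNBU replicate 2 the value was -0.58 or -0.49, short of the threshold, as it was in DESeq2 (-0.57). DNAJC3, a co-chaperone that also inhibits PERK, fell in BUTN (-0.59 ± 0.09) and TNBU (-0.63 ± 0.09). Without TN replicate 1 its BUTN value was -0.57 and without TNBU replicate 2 its TNBU value was -0.48, both short of the threshold.

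SDF2L1, an ER partner of the DNAJB11 co-chaperone, was singled out after its values were seen. It stood at 13.5 and 13.2 CPM (Ctrl), 12.2 and 14.9 (TN), 23.7 and 23.5 (PRTN), 20.2 and 18.7 (BUTN), 21.5 and 21.5 (TNPR), and 19.9 and 22.9 (TNBU). Every SCFA library was above every other library. It rose in PRTN (0.81 ± 0.10, adjusted p = 2.40e-05), TNPR (0.67 ± 0.10, adjusted p = 1.25e-04) and TNBU (0.66 ± 0.11, adjusted p = 1.55e-04), and in BUTN the log2 fold change was 0.53 ± 0.11. The TNPR and TNBU calls were lost without TN replicate 1 (0.50 and 0.51), the TNBU call also without TNBU replicate 2 (0.53), and the BUTN value passed without TN replicate 2 (0.65). DNAJB9, DNAJB11 and CRELD2, the other chaperone-group members, had no call against TN, with log2 fold changes between -0.46 and 0.33.

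Of the 3 folding genes with redox roles, only PDIA6 fell, and it did so in every SCFA group. PDIA6, a disulfide isomerase that also binds IRE1, was at 518 and 502 CPM (Ctrl), 519 and 532 (TN), 320.3 and 314 (PRTN), 318 and 327 (BUTN), 325 and 329.7 (TNPR), and 334 and 323 (TNBU). Its log2 fold changes were -0.73, -0.70, -0.68 and -0.68 (SE 0.05 each). PDIA4, another disulfide isomerase, was at 249 to 294 CPM in SCFA libraries and at 260.3 to 290.3 in the others, and its log2 fold changes lay between -0.11 and 0.07. ERO1B, which oxidises the isomerases, rose in TNPR (0.64 ± 0.11, adjusted p = 2.87e-04) and had log2 fold changes of 0.45 for PRTN, 0.35 for BUTN and 0.40 for TNBU. Its TNPR call was lost without TN replicate 2 (0.58), without TNPR replicate 2 (0.46) and without TNBU replicate 2 (0.58).

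HERPUD1 was the 1 member with calls among the 5 of translocation and ERAD. It encodes a membrane protein that assembles the ERAD ligase complex. It stood at 72.9 and 74.5 CPM (Ctrl), 92.2 and 80.6 (TN), 32.5 and 32.7 (PRTN), 39.5 and 38.3 (BUTN), 34.2 and 25.2 (TNPR), and 32.5 and 26.5 (TNBU), so the SCFA libraries did not reach the lowest Ctrl library. The log2 fold changes were -1.40 ± 0.12, -1.15 ± 0.12, -1.55 ± 0.12 and -1.56 ± 0.12, with adjusted p of at most 4.44e-06. SEL1L and SYVN1, the scaffold and the ubiquitin ligase of the same complex, had log2 fold changes from -0.19 to 0.27 and from -0.07 to 0.21. SYVN1 exons overlap those of the protein-coding gene FAU on the same strand, whose reads cannot be told apart by strand. EDEM1, a lectin that delivers misfolded glycoproteins, ranged from -0.34 to -0.24, and SEC61B, a subunit of the translocation channel, from 0.07 to 0.46. None of these 4 passed the threshold with TMM factors in limma-voom, or in edgeR or DESeq2. With scaling by library size alone SEC61B passed the call threshold in TNPR (0.63).

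**Figure D2:**
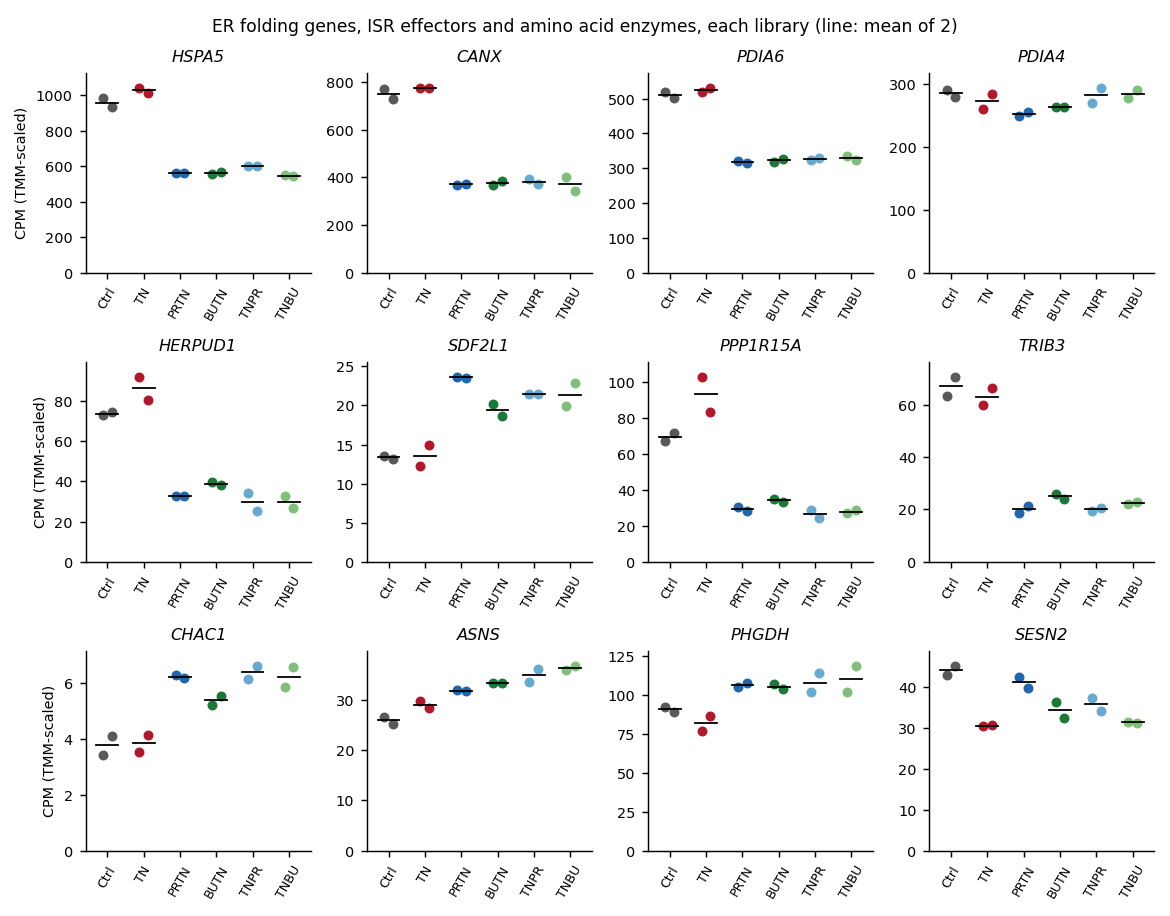
CPM of each library (points, 2 a group) and the group mean (line) for 12 members, with the vertical axes starting at 0. HSPA5, CANX, PDIA6, HERPUD1, PPP1R15A and TRIB3 are lower in all 8 SCFA libraries, SDF2L1 and CHAC1 are higher in all 8, and PDIA4 overlaps between the groups.

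The genes of the 3 sensors and of XBP1 moved in different directions. XBP1 (ENSG00000100219, chr22:28794555-28800597) encodes the transcription factor that IRE1 activates by splicing. Its level was 83.4 and 79.9 CPM (Ctrl), 102 and 102 (TN), 24.5 and 24.4 (PRTN), 28.2 and 29.2 (BUTN), 23.8 and 21.2 (TNPR), and 25.8 and 23.4 (TNBU). The highest SCFA library, at 29.2 CPM, was far below the lowest Ctrl library, at 79.9 CPM. The log2 fold change against TN was -2.06 ± 0.07, -1.83 ± 0.07, -2.18 ± 0.07 and -2.06 ± 0.07, with adjusted p of at most 1.57e-09.

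ATF6 (chr1:161766298-161977574) was at 60.6 and 60.2 CPM (Ctrl), 62.4 and 59.4 (TN), 36.0 and 35 (PRTN), 37.2 and 37.3 (BUTN), 34.1 and 38.7 (TNPR), and 38.4 and 38.5 (TNBU). The log2 fold changes were -0.78, -0.71, -0.75 and -0.66 (SE 0.07 each, adjusted p of at most 4.57e-06). ERN1 (chr17:64039080-64130819), the gene of IRE1, was the 1 sensor that was higher in SCFA libraries. It was at 15.3 and 16.9 CPM (Ctrl), 26.6 and 27.2 (TN), 38.2 and 33.9 (PRTN), 43.5 and 38.6 (BUTN), 31.1 and 30.9 (TNPR), and 32.6 and 30.4 (TNBU). All 8 SCFA libraries lay above both TN libraries, but only BUTN passed the threshold (0.61 ± 0.09, adjusted p = 7.06e-05), and that call was lost without TN replicate 1 (0.56) or BUTN replicate 1 (0.50). EIF2AK3, the gene of PERK, was at 46.3 and 50.4 CPM (Ctrl), 54.9 and 52.5 (TN), 46.8 and 48.9 (PRTN), 45.4 and 43.1 (BUTN), 48.3 and 46.5 (TNPR), and 46.7 and 35.9 (TNBU). Its log2 fold changes were -0.17, -0.28, -0.18 and -0.39 (SE 0.10 each) and none was called. Without TNBU replicate 1 the TNBU value was -0.62, past the threshold.

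**Figure D3:**
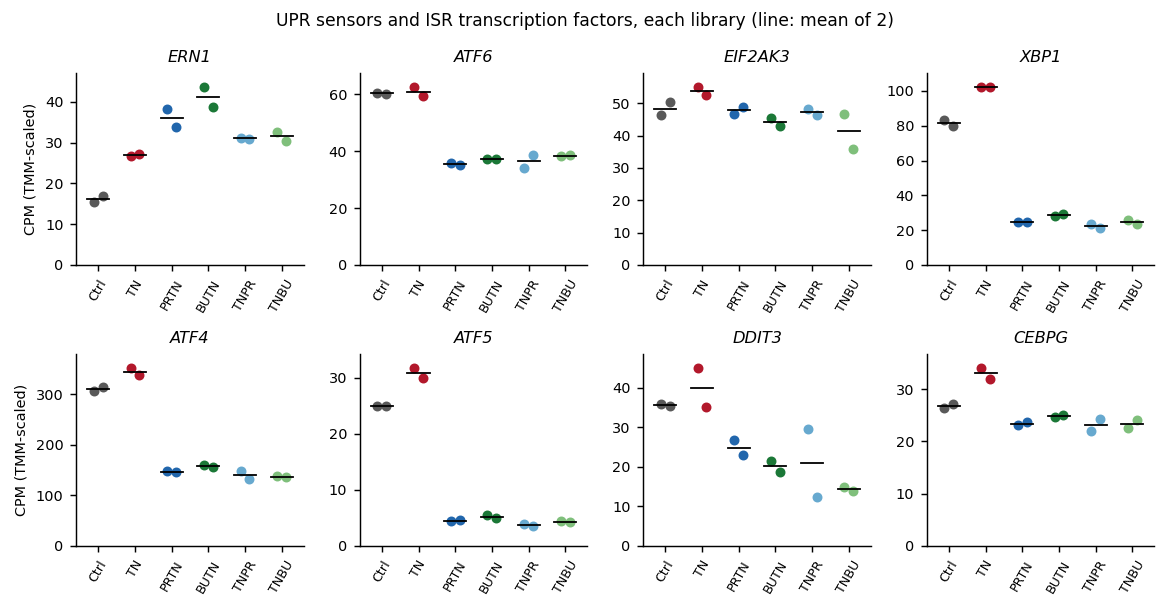
CPM of each library (points, 2 a group) and the group mean (line) for the 3 sensor genes, XBP1 and 4 ISR factors, with the vertical axes starting at 0. XBP1, ATF4 and ATF5 form a lower level in all SCFA groups, ERN1 steps up in TN and again in the SCFA groups, and the 2 DDIT3 libraries of TNPR stand apart at 29.5 and 12.4 CPM.

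Among the ISR transcription factors ATF4, ATF5 and DDIT3 fell in all 4 SCFA groups. ATF4 (ENSG00000128272, chr22:39519695-39522683), the central factor of the ISR, was at 305 and 313 CPM (Ctrl), 351 and 337 (TN), 147 and 146 (PRTN), 160.0 and 155 (BUTN), 148 and 131 (TNPR), and 137 and 136 (TNBU). No SCFA library came near the lowest Ctrl library. Its log2 fold changes were -1.23, -1.13, -1.30 and -1.33 (SE 0.06 each, adjusted p of at most 1.87e-08).

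ATF5 (chr19:49928702-49933935), a relative of ATF4 that is also known for the mitochondrial stress response, showed the largest decrease of the members tested. It stood at 25 and 24.9 CPM (Ctrl) and at 31.7 and 30.0 (TN). The SCFA levels were 4.47 and 4.51 (PRTN), 5.44 and 4.98 (BUTN), 3.86 and 3.46 (TNPR), and 4.4 and 4.15 (TNBU). Against TN these are log2 fold changes of -2.78 ± 0.10, -2.57 ± 0.10, -3.07 ± 0.11 and -2.85 ± 0.11, with adjusted p of at most 1.40e-09. Exons of ATF5 overlap those of IL4I1 and NUP62 on the opposite strand, and since the strand setting of the counting is not given in the sources used here, reads of these genes cannot be told apart with certainty.

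DDIT3 (CHOP), the factor tied to ER stress-induced death, was the least precise of the members. It was at 36.0 and 35.4 CPM (Ctrl), 45.0 and 35.2 (TN), 26.8 and 22.9 (PRTN), 21.5 and 18.8 (BUTN), 29.5 and 12.4 (TNPR), and 15.0 and 14.0 (TNBU). Although each SCFA library was below each other library, the log2 fold changes of -0.68 ± 0.26, -0.99 ± 0.26, -1.04 ± 0.27 and -1.45 ± 0.29 carried wide errors. In PRTN the adjusted p was 0.0381 and was 0.105 in DESeq2. That call was lost without PRTN replicate 1 (adjusted p = 0.0561), PRTN replicate 2 (0.140), TN replicate 1 (0.195) or either Ctrl library (0.0506, limma-voom each). Without TN replicate 1 the BUTN value was -0.84 (adjusted p = 0.0565), and without TNPR replicate 2 the TNPR value was -0.48 (adjusted p = 0.0143), short of the fold threshold. DDIT3 exons overlap MARS1 and MBD6 on the opposite strand, with the same limit as for ATF5, and the protein-coding gene ENSG00000285133 on the same strand, whose reads cannot be told apart by strand.

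CEBPG, a dimer partner of ATF4, was at 26.3 to 34 CPM in Ctrl and TN libraries and at 21.9 to 25 in SCFA libraries, and its log2 fold changes of -0.50, -0.41, -0.52 and -0.50 were short of the fold threshold. Without TN replicate 2 or TNPR replicate 2 the TNPR value was -0.59 or -0.65, past it. CEBPB, a related factor, had log2 fold changes from -0.35 to -0.22.

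The ISR effectors did not move together, since PPP1R15A and TRIB3 fell and CHAC1 rose. PPP1R15A (GADD34, chr19:48872212-48876059) recruits the phosphatase that removes phosphate from eIF2α. Its level was 67.1 and 71.8 CPM (Ctrl), 103 and 83.5 (TN), 30.2 and 28.3 (PRTN), 35 and 33.1 (BUTN), 28.7 and 24.3 (TNPR), and 27 and 28.7 (TNBU). The log2 fold changes were -1.67 ± 0.10, -1.45 ± 0.10, -1.81 ± 0.11 and -1.74 ± 0.11, with adjusted p of at most 1.87e-07. TRIB3, a pseudokinase induced by ATF4 and CHOP, was at 63.6 and 70.9 CPM (Ctrl), 59.9 and 66.5 (TN), 18.8 and 21.3 (PRTN), 26.1 and 24.2 (BUTN), 19.5 and 20.5 (TNPR), and 22 and 23.0 (TNBU). It fell by 1.66, 1.33, 1.66 and 1.49 on the log2 scale (SE 0.09 each, adjusted p of at most 9.26e-08).

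CHAC1, an enzyme that degrades glutathione and is likewise a known target of ATF4, was described after its values were seen because it moved against TRIB3. It was at 3.43 and 4.12 CPM (Ctrl), 3.54 and 4.13 (TN), 6.28 and 6.17 (PRTN), 5.22 and 5.55 (BUTN), 6.13 and 6.62 (TNPR), and 5.85 and 6.57 (TNBU). The levels rest on 95 to 217 counts a library, and the SCFA libraries were above all others. It rose in PRTN (0.70 ± 0.14, adjusted p = 0.00105), TNPR (0.73 ± 0.14, adjusted p = 7.50e-04) and TNBU (0.70 ± 0.15, adjusted p = 0.00127), with 0.49 ± 0.15 in BUTN. Without TN replicate 1 the PRTN and TNBU values were 0.56 and 0.57, short of the fold threshold.

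DDIT4 and SESN2, inhibitors of mTORC1, and VLDLR, a lipoprotein receptor under PERK and ATF4, had no call against TN. DDIT4 lay between 108 and 150.3 CPM in all libraries with or without SCFA. SESN2 had log2 fold changes of 0.43, 0.16, 0.23 and 0.04, and VLDLR of -0.30, -0.35, -0.37 and -0.39. VLDLR exons overlap VLDLR-AS1 on the opposite strand, with the limit given for ATF5.

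The 4 enzymes of amino acid synthesis, which ATF4 is known to induce, passed the call threshold in no SCFA group, in limma-voom, edgeR or DESeq2. ASNS, asparagine synthetase, was at 26.6 and 25.2 CPM (Ctrl), 29.7 and 28.3 (TN), 31.9 and 31.7 (PRTN), 33.4 and 33.3 (BUTN), 33.6 and 36.1 (TNPR), and 36.0 and 36.8 (TNBU). All 8 SCFA libraries were slightly above the TN libraries, with log2 fold changes of 0.13, 0.20, 0.26 and 0.33 (SE 0.07 each) and adjusted p of 0.126, 0.0272, 0.00568 and 0.00136. PHGDH, which opens the serine pathway, was also above in each SCFA library, with 0.38, 0.36, 0.39 and 0.43 (SE 0.09 each). Its adjusted p was under 0.05 in all 4 groups (limma-voom), with folds under 1.5. With scaling by library size alone PHGDH passed the call threshold in TNBU (0.62). PSAT1, the next enzyme of that pathway, ranged from -0.02 to 0.14, and SHMT2, which passes serine carbon to folate in mitochondria, from -0.28 to -0.04. With TMM factors ATF4 and these 4 enzymes therefore stood on different sides of the call threshold in the same libraries. The difference between them was not itself tested.

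In TN against Ctrl 1 member was called, ERN1, which rose by 0.74 ± 0.10 on the log2 scale from 15.3 and 16.9 CPM (Ctrl) to 26.6 and 27.2 in TN (adjusted p = 0.00128). Among all tested genes 0.764% were higher and 0.534% lower in TN. No member was lower by this rule in limma-voom, edgeR or DESeq2. With the adjusted p alone 7 members passed, where 3.51% of all tested genes did, and 12 had an unadjusted p under 0.05, against 17.0% of all. Besides ERN1 they were DNAJB9 (0.40 ± 0.09), an HSPA5 co-chaperone that IRE1 and XBP1 control, PPP1R15A (0.42 ± 0.10), XBP1 (0.32 ± 0.06) and ATF5 (0.31 ± 0.07) in the positive direction, and SESN2 (-0.53 ± 0.08) and VLDLR (-0.39 ± 0.06) in the negative direction. These 6 had fold changes under 1.5. Over 20 alternative fits ERN1, SESN2 and VLDLR kept an adjusted p under 0.05 (at most 0.0312, 0.0419 and 0.0384). DNAJB9, PPP1R15A, XBP1 and ATF5 did not, with adjusted p up to 0.200, 0.296, 0.154 and 0.236. All of these missed it without either Ctrl library and without TN replicate 1, and all but PPP1R15A without TN replicate 2. ATF5 and PPP1R15A also missed it without any 1 PRTN or BUTN library (0.0536 to 0.0627), and DNAJB9 without BUTN replicate 1 (0.0501). Of the 6 members, XBP1, ATF5 and PPP1R15A fell in all 4 SCFA groups against TN and lay below Ctrl there, while ERN1 did not return to its Ctrl level in any SCFA library. SESN2 was at 42.9 and 45.2 CPM (Ctrl), 30.4 and 30.7 (TN) and 31.2 to 42.5 in SCFA libraries. VLDLR was at 213 and 218 CPM (Ctrl), 163 and 165 (TN) and 121 to 135 in SCFA libraries. HSPA5, whose log2 fold change in TN was 0.10 ± 0.04 (adjusted p = 0.251), and DDIT3, with 0.16 ± 0.25 (adjusted p = 0.825), had no call.

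Propionate at 15 mM and butyrate at 3 mM, acids that differ by 1 methylene group in the chain, were compared at the same times but at different doses, so the values stand side by side as groups and not as a comparison of potency. Before TNF-α, no member was called between PRTN and BUTN, against 0.168% of all tested genes, and after TNF-α none was called between TNPR and TNBU, against 0.00822%. The same counts of 0 came from edgeR and DESeq2. An unadjusted p under 0.05 was reached by 13 members before and 7 after, where 14.0% and 8.61% of all tested genes reached it. The 95% interval of the difference lay within 1.5-fold for 36 of 37 members at either time, the exception being DDIT3, with 0.31 (-0.28 to 0.89) before and 0.41 (-0.24 to 1.07) after. For XBP1 the propionate group was lower by 0.23 (-0.40 to -0.06) before and 0.12 (-0.30 to 0.05) after TNF-α on the log2 scale, and for HSPA5 the difference was -0.01 and 0.14.

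DNAJB11 was the 1 member with an adjusted p under 0.05 between the acids, in PRTN against BUTN, as 0.575% of all tested genes had. Its exons overlap those of the protein-coding gene ENSG00000283149 on the same strand, whose reads cannot be told apart by strand. DNAJB11 is a soluble co-chaperone of HSPA5. It stood at 101 and 95.5 CPM (Ctrl), 109.7 and 103 (TN), 137 and 130.1 (PRTN), 103 and 109 (BUTN), 136 and 129.6 (TNPR), and 106 and 111 (TNBU). The propionate libraries lay above all others, and the butyrate libraries overlapped the range of TN. The log2 difference was 0.33 ± 0.06 before TNF-α (adjusted p = 0.0400) and 0.29 ± 0.06 after it (adjusted p = 0.257), both under 1.5-fold. The adjusted p before TNF-α was not under 0.05 in 9 of 20 alternative fits. It was 0.411 and 0.204 without PRTN replicates 1 and 2, 0.382 and 0.230 without BUTN replicates 1 and 2, 0.0535 to 0.0754 without a Ctrl or TN library and 0.0501 with the replicate block (limma-voom each).

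**Figure D4:**
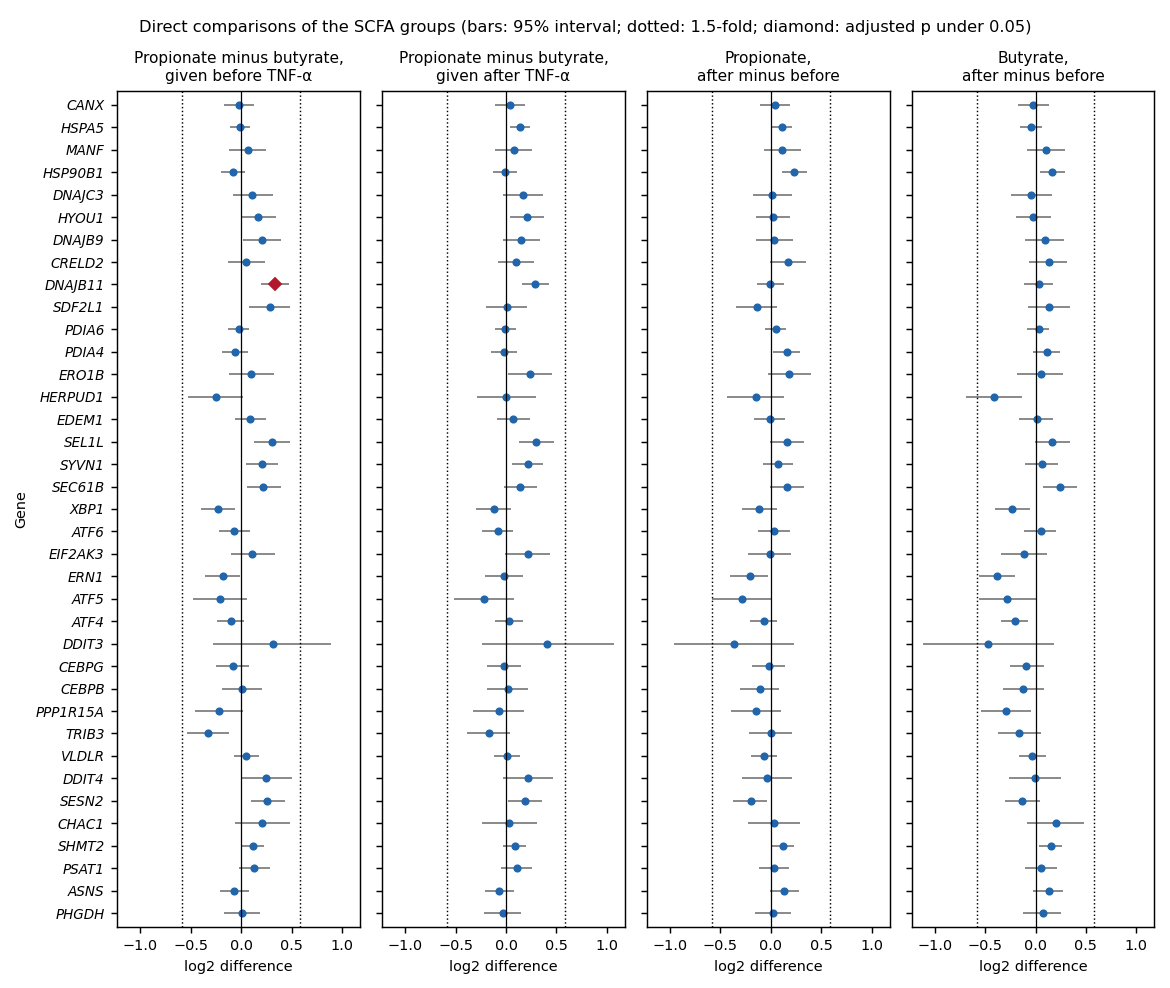
log2 difference (points) with its 95% interval (bars) for the 37 tested members in 4 direct comparisons of SCFA groups, with dotted lines at 1.5-fold. Nearly all intervals lie between the dotted lines, DDIT3 has the widest, and DNAJB11 in PRTN against BUTN is the diamond with an adjusted p under 0.05.

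Whether the SCFA came before or after TNF-α was compared next, and these groups also differ in the time since TNF-α. No member was called in TNPR against PRTN, where 0.160% of all tested genes were, or in TNBU against BUTN, where 0.267% were, and edgeR and DESeq2 gave 0 as well. An unadjusted p under 0.05 was found for 7 and 9 members, against 11.2% and 14.4% of all tested genes. The intervals lay within 1.5-fold for 36 and 35 of 37 members. The smallest adjusted p belonged to ERN1 in TNBU against BUTN, with -0.38 ± 0.08 (adjusted p = 0.0634). DDIT3 was the least certain again, with -0.36 ± 0.27 in TNPR against PRTN, and without TNPR replicate 1 the value was -1.01 (adjusted p = 0.0396, limma-voom), a call that rests on the lone library at 12.4 CPM. The difference of these differences between the acids passed an adjusted p of 0.05 for no member in limma-voom, edgeR or DESeq2, as for 0% of all tested genes. By the unadjusted p it passed for 1 member and 3.84% of all genes.

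Related genes outside the members were read from lists compiled by function. Of 16 other ER folding genes 3, 2, 3 and 2 were higher and 4, 4, 3 and 3 lower in PRTN, BUTN, TNPR and TNBU. Of 27 other genes of ERAD and translocation 4, 3, 5 and 4 were higher and 3, 2, 1 and 3 lower, and of 20 tested sensor relatives and membrane-bound factors 3, 2, 4 and 3 were higher and 3, 2, 4 and 4 lower. Of 38 tested further ISR targets 5, 6, 6 and 5 were higher and 10, 10, 10 and 9 lower, with list medians of -0.13, -0.24, -0.19 and -0.19. Among all tested genes 23.9%, 23.1%, 24.9% and 25.0% were higher and 16.7%, 14.8%, 16.9% and 16.5% lower in the same order. Decreases and increases thus occurred in each of these lists, as they did among all tested genes, and no list was tested against these shares.

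The largest increases called in all 4 groups were those of CREB3L3, TXNIP and CTH. CREB3L3, a liver-enriched membrane-bound relative of ATF6, had no read in either TN library and 116 to 197 counts in the SCFA libraries, where it stood at 3.71 to 6.16 CPM. Set against 3 counts a library, it was at least 36.8-fold higher in PRTN, 46.3-fold higher in BUTN, 33.2-fold higher in TNPR and 39.5-fold higher in TNBU. TXNIP, the thioredoxin-binding protein that PERK and IRE1 are known to raise, went from 68.7 and 68.7 CPM (TN) to 654 to 881 CPM in SCFA libraries, with log2 fold changes of 3.5, 3.63, 3.34 and 3.54 (SE 0.08 each). CTH, which makes cysteine, had 2.0, 1.57, 2.19 and 1.71.

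The largest decreases were those of MTHFD1L, GDF15 and TARS. MTHFD1L, a mitochondrial folate enzyme, went from 108 and 109 CPM (TN) to 31.3 to 37.1 in SCFA libraries. GDF15, a secreted stress hormone, had log2 fold changes of -1.08, -0.70, -1.83 and -1.80, its SCFA libraries spanning 3.29 to 10.7 CPM against 15.0 and 19.6 (TN). TARS, the threonyl-tRNA synthetase, had -1.23, -1.09, -1.15 and -1.14 (SE 0.06 each). Of 12 aminoacyl-tRNA synthetases, grouped after their values were seen, 2, 3, 2 and 2 were lower, a share near the 16.7%, 14.8%, 16.9% and 16.5% of all tested genes. Of 8 amino acid transporters grouped likewise 2 were higher in each group and 3, 2, 2 and 2 lower. The count of higher ones is near the share of all tested genes, of which 23.9%, 23.1%, 24.9% and 25.0% were higher. The lower ones were not tested against the shares of all genes given above. SLC7A5 and SLC1A4 rose in all 4, with mean log2 fold changes of 1.41 and 1.18, SLC7A1 fell in all 4, with -1.15, and SLC7A11, the cystine transporter, fell in PRTN, BUTN and TNPR (-0.60, -0.79 and -0.70) and had -0.56 in TNBU.

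**Figure D5:**
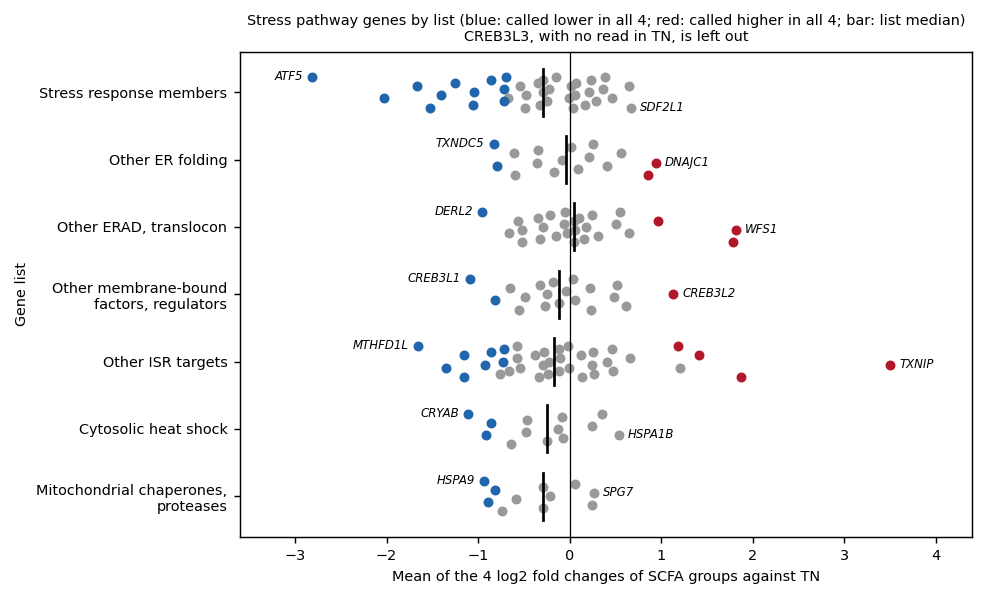
Mean of the 4 log2 fold changes of the SCFA groups against TN (horizontal axis) for each tested gene of the members and of 6 other lists (rows), with the list median as a bar and the lowest and highest gene named. Genes called lower in all 4 groups are blue and those called higher in all 4 are red. The members hold 12 blue points and no red one, and CREB3L3 is left out because it had no read in TN.

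Some members could have shared reads with similar genes. Of the 38 members 10 had counts that were not whole numbers in all 12 libraries, which is how the estimation divides reads that fit more than 1 gene, and their levels are uncertain to that extent. They were HSPA5, HSP90B1, HYOU1, DNAJB11, PDIA6, SYVN1, ATF4, DDIT3, ATF5 and CEBPB.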

How the data were processed

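Stranded TruSeq mRNA libraries of HK2 cells were sequenced by the authors, who aligned reads to GRCh38 with STAR 2.6.1a after FastQC 0.11.5 and deposited RSEM expected counts per gene. The RSEM version and strand setting are not given in the sources used here. Of the deposited expected counts 19.3% were not whole, and estimation can divide reads between similar genes.

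Genes were kept where the geometric mean of the count plus 1, minus 1, was at least 1, which removed 33936 of 58278 genes. TMM factors and limma-voom (limma 3.58.1, edgeR 4.0.16, R 4.3.3) were used with a mean for each of 6 groups over all 12 libraries, and p-values were adjusted by Benjamini-Hochberg over 24342 genes. A call required a fold over 1.5 and an adjusted p under 0.05. Errors are standard errors of log2 fold changes, n = 2 a group, from a spread for each gene pooled over all 6 groups. Replicates of TNPR and TNBU lay farther apart than the others, so errors and intervals involving them may be too narrow. CPM are relative to TMM-scaled library sizes. Depth was 27269986 to 33851130 expected counts a library, and limits from 3 counts cover counting error only.

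Alternatives were edgeR's quasi-likelihood test and DESeq2 1.42.0 on rounded counts, other scalings, filters and thresholds, a replicate block and leaving out each library. The scripts were tested on simulated data. The main fit treated samples of the same number as unpaired. The 15 correlations of same-numbered deviations ran from -0.0791 to 0.240 with 1 over 0.1, which cannot settle whether the samples were paired.

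Library values are given for up to 4 members a role called in all 4 SCFA groups, for XBP1, ATF6, ERN1, EIF2AK3, ATF4, DDIT3 and HSPA5, and for members called in TN or in direct comparisons. Of other lists the 3 largest rises and falls called in all 4 groups are named. Further genes were picked after their values were seen. The members and lists were chosen with earlier results of these data known. Gene positions are from GENCODE 44 and promoters from RefSeq.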

Additional observations from a re-analysis of the deposited data

Results flagged for a closer look

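The difference between propionate and butyrate before TNF-α passed its test for DNAJB11, the HSPA5 co-chaperone, with a log2 difference of 0.33 in PRTN against BUTN (adjusted p = 0.0400, limma-voom). Both propionate libraries, at 137 and 130.1 CPM, were above both butyrate libraries, at 103 and 109 CPM, and the fold was under 1.5. The doses differed, and after TNF-α the difference of 0.29 did not pass (adjusted p = 0.257). DNAJB11 exons overlap those of ENSG00000283149 on the same strand, whose reads cannot be told apart by strand. Before TNF-α the adjusted p ranged from 8.19e-04 (DESeq2) to 0.411 (without PRTN replicate 1) over 20 alternative fits and was not under 0.05 in 9 of them, among them each fit without a PRTN, BUTN, Ctrl or TN library.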

How the results depend on the processing

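Over 6660 recalculations of a member's log2 fold change, 6574 stayed on the same side of the call threshold, 43 lost a call, 43 gained one and 0 reversed a call. In TN against Ctrl the 1 higher member became 0 with a fold over 2 and 5 with the adjusted p alone, which also called 2 lower. With a fold over 2 the higher members of PRTN, BUTN, TNPR and TNBU were all 0 and the lower members of PRTN, BUTN and TNBU were 7, 7 and 8. With the adjusted p alone the higher were 8, 6, 10 and 7, the lower of PRTN, BUTN and TNPR were 21, 23 and 20, and PRTN against BUTN had 1. Library size alone gave 3 higher in BUTN and 4 higher with 9 lower in TNBU, and among all genes in TNBU it moved the split from 6094 higher and 4027 lower to 7329 and 2849. BUTN had 0 higher without a filter and with edgeR's default filter. The cause of these shifts other than the thresholds was not tested. Leaving out 1 library gave 1 to 1 higher and 0 to 0 lower for TN, 1 to 2 and 12 to 13 for PRTN, 0 to 2 and 13 to 15 for BUTN, 2 to 3 and 12 to 14 for TNPR, 0 to 2 and 13 to 15 for TNBU, and 0 to 1 calls between TNPR and PRTN. A lone library was assumed to vary like the other groups. With the replicate block the counts were unchanged, 2, 1, 3 and 2 higher with 13, 14, 12 and 14 lower. Whether the replicate numbers pair the samples was not settled. With 2 replicates a group, DDIT3 and members near 1.5-fold were the least certain.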

Other observations

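Cytosolic heat shock genes and mitochondrial chaperones and proteases, which serve protein folding outside the ER, were counted in the same comparisons. Of 13 heat shock genes 3, 4, 4 and 4 were lower and 1, 0, 1 and 0 higher in PRTN, BUTN, TNPR and TNBU against TN by limma-voom, with list medians of -0.25, -0.24, -0.27 and -0.23. Among all tested genes 16.7%, 14.8%, 16.9% and 16.5% were lower and 23.9%, 23.1%, 24.9% and 25.0% higher. CRYAB, a small heat shock protein, fell in all 4 groups from 51.6 and 54.2 CPM in TN to 18.4 to 31.2 CPM. HSPH1 and DNAJA1, which assist HSP70, also fell in all 4, with mean log2 fold changes of -0.91 and -0.86. Of 11 mitochondrial genes 4, 5, 3 and 5 were lower and the other 7, 6, 8 and 6 had no call, with list medians of -0.25, -0.36, -0.31 and -0.38 and highest values of 0.34, 0.18, 0.40 and 0.26. HSPD1, the mitochondrial chaperonin, stood at 1072 and 1014 CPM in TN and at 539 to 590.0 CPM in the SCFA libraries. Its partner HSPE1 and the mitochondrial HSP70, HSPA9, had mean log2 fold changes of -0.82 and -0.93 and were lower in all 4. These genes were singled out after their values were seen.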
